A study of Mus musculus with 12 samples.

Results

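The late interval of meiotic maturation in oocytes without ALKBH5 was described by setting the KO MII libraries against the KO GVBD libraries of the gene count matrix, that is 4 of the 12 libraries in the series, with 2 libraries per stage. The 2 WT GVBD and 2 WT MII libraries, from wild-type females treated, aged and sampled in the same way, were used to test whether a late change differed between genotypes and for values set beside those of KO. All mice of both genotypes were on a *C57BL/6* background, and the KO oocytes came from whole-body *Alkbh5*-/- females bred from *Alkbh5*+/- mice. Females aged 3 weeks were primed with PMSG (pregnant mare serum gonadotropin), and fully grown germinal vesicle (GV) oocytes were stripped of cumulus cells and cultured in M16 medium. Oocytes were collected by time, after 4 h as GVBD (germinal vesicle breakdown, the first visible step of meiotic resumption) and after 16 h as MII (metaphase II, the stage at which a mature egg waits for sperm). The zona pellucida was removed, oocytes were pooled, and external ERCC spike-in RNA was added to each tube before polyadenylated RNA was reverse transcribed and amplified. The sources give different numbers of oocytes per pool. Because the surrounding ovarian cells of these females also lacked ALKBH5, the oocytes do not come from an oocyte-restricted deletion. In the study, most cultured KO oocytes stayed at the GV stage without germinal vesicle breakdown, and few released a first polar body. Whether the pooled KO oocytes had been chosen by stage was not found in the sources used here. "KO GVBD" and "KO MII" below therefore mean KO oocytes labelled GVBD and MII by time in culture.

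A fully grown mouse oocyte is transcriptionally silent, so messenger RNA lost during maturation is not replaced by new transcription. Clearance runs mainly through shortening of the poly(A) tail by the CCR4-NOT deadenylase, which BTG4 brings to messages that are being translated, followed by decapping and exonucleolytic decay. Other messages are protected or lengthened at their tails through cytoplasmic polyadenylation elements, which the protein CPEB1 binds in the 3′ UTR. ALKBH5 removes N6-methyladenosine (m6A), a mark that readers such as YTHDF2 and the IGF2BP proteins use to shorten or lengthen the life of a message. Since reverse transcription started from poly(A) tails, the loss of a message and the shortening of its tail cannot be told apart here.

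*Alkbh5*, the targeted gene (chr11:60536381-60558512, GRCm38, plus strand), had 54 and 113 counts in the KO GVBD libraries and 94 and 71 counts in the KO MII libraries. After scaling to the spike-in these values were 88.79 and 124.5 at GVBD and 94.07 and 50.86 at MII, which overlap. The log2 change was -0.56 ± 0.94 (SE, n = 2 per stage) with an adjusted p = 0.859 (edgeR quasi-likelihood test, Benjamini-Hochberg adjustment over all tested genes). The 8 oocyte marker genes were present in all 4 libraries, with summed scaled counts of 923500 and 782100 at GVBD and 814000 and 592600 at MII, and edgeR called 0 of them, with 0 at an unadjusted p under 0.05 and 0 called by DESeq2. The 12 libraries held 28557742 to 40247810 counts, and the 4 KO libraries used here held 29968490, 36483055, 35878168 and 31402587 counts in the order KO GVBD replicate 1, KO GVBD replicate 2, KO MII replicate 1 and KO MII replicate 2. The number of genes detected was 22461 and 23234 at GVBD and 22076 and 19837 at MII. KO MII replicate 2 was thus the library with the fewest detected genes.

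Relative to the spike-in, the endogenous RNA pool of KO oocytes was smaller at MII than at GVBD. Endogenous counts per spike-in count were 121 and 98.47 in the KO GVBD libraries and 87.87 and 54.67 in the KO MII libraries. Both MII values lay below both GVBD values. The means were 109.7 ± 15.9 and 71.27 ± 23.47 (SD, n = 2 each), a ratio of 0.650 or a fall of 35.0%. A 2-sided exact permutation test gave p = 0.333, the smallest value that 2 libraries against 2 can give. In WT oocytes over the same interval the ratio was 0.641. In pooled oocytes, fewer or damaged cells and less RNA per cell cannot be told apart.

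**Figure D1:**
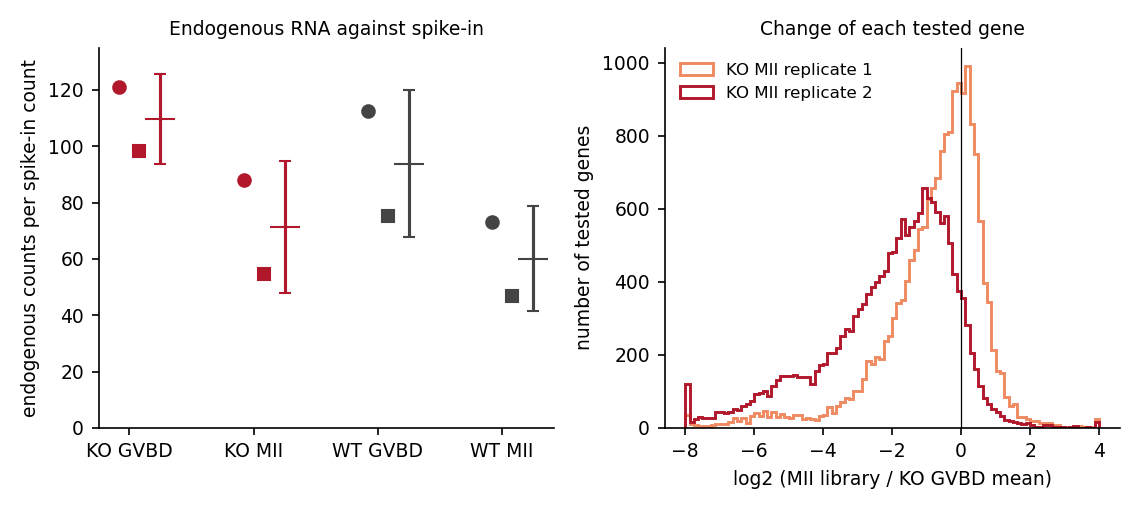
Left, endogenous counts per spike-in count in each GVBD and MII library (circle, replicate 1; square, replicate 2), with the mean and SD of each pair; both KO MII libraries sit below both KO GVBD libraries. Right, the number of tested genes against the log2 ratio of each KO MII library to the mean of the KO GVBD libraries, with a pseudocount of 0.5 and values beyond the axis collected in the end bins; the median is -0.47 for KO MII replicate 1 and -1.70 for KO MII replicate 2.

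Messages were lost far more often than they were gained. Of 18143 tested genes, 958 (5.28%) were called lower at MII and 11 (0.0606%) were called higher, where a call needs an adjusted p under 0.05 and at least a 2-fold change (edgeR quasi-likelihood test, Benjamini-Hochberg adjustment). The lower calls numbered 433 with TMM scaling, 399 with median-of-ratios scaling and 2256 by DESeq2. The median gene had a log2 change of -0.88 on the spike-in scale, with quartiles of -1.84 and -0.21, and 15036 genes (82.9%) had a fitted change below 0. A fitted fall of 2-fold or more was found for 8384 genes (46.2%) and a fitted rise of 2-fold or more for 301 genes (1.66%). Both MII libraries lay below both GVBD libraries for 9426 genes (52%) and above both for 548 genes (3.02%).

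The depth of the loss differed between the MII libraries, and the number of calls depended on single libraries. Relative to the mean of the GVBD libraries, the median gene stood at -0.47 in KO MII replicate 1 and at -1.70 in KO MII replicate 2 on the log2 scale. Without KO MII replicate 1 there were 6305 calls, and without KO MII replicate 2 there were 21. Without KO GVBD replicate 1 there were 38 calls and without KO GVBD replicate 2 there were 35. The values below are therefore given for each library.

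The genes called lower had a median log2 change of -3.81, and the smallest fall among them was -2.13. They were abundant before the loss, with a median of 1271 scaled counts at KO GVBD against 249.7 for all tested genes. In 131 of them (13.7%) both MII libraries had at most 3 counts, compared with 349 of all tested genes (1.92%). The genes were picked for low values at MII, so this difference follows from the selection. When genes were ranked by their level in the KO GV libraries, which this comparison did not use, the share called lower was 2.18% in the lowest quintile and 11.1% in the highest. The median change was -0.92 in the lowest quintile and -0.71 in the highest, while the median standard error was 1.55 and 0.72. The abundant genes were thus called more often although their typical change was not larger.

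**Figure D2:**
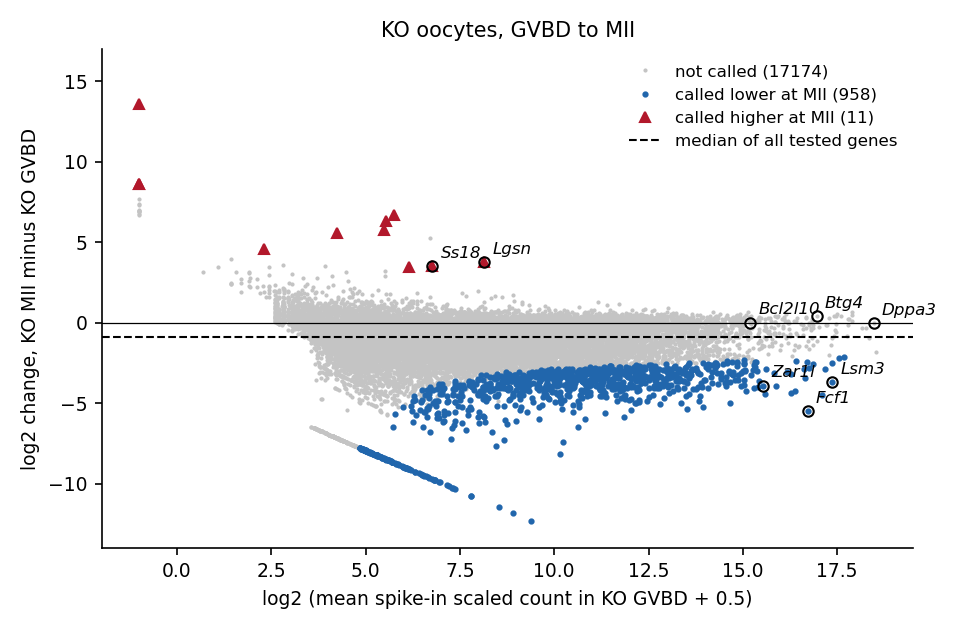
Log2 change of each tested gene from KO GVBD to KO MII against its mean spike-in scaled count in KO GVBD (log2, plus 0.5); blue points are the 958 genes called lower, red triangles the 11 called higher, and the dashed line the median of -0.88. The straight diagonal of points at the lower left holds genes with 0 counts in both MII libraries, whose fitted change depends on the prior count; *Fcf1*, *Lsm3* and *Zar1l* lie at the right among abundant genes that fell, and *Dppa3*, *Btg4* and *Bcl2l10* near 0.

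The fall with the smallest p-value was that of *Fcf1*, which encodes a factor of early ribosomal RNA processing (chr12:84970897-84983303, plus strand). It had 115600 and 99830 scaled counts in the KO GVBD libraries and 3312 and 1461 in the KO MII libraries. The stages did not overlap, and both MII libraries were low. The change was -5.50 ± 0.72 on the log2 scale (SE, n = 2 per stage, edgeR with Benjamini-Hochberg adjusted p = 0.00135). *Lsm3*, a subunit shared by the LSM rings that act in mRNA decapping and in the U6 splicing particle (chr6:91515928-91522625, plus strand), had 203500 and 133900 scaled counts at GVBD and 17880 and 8150 at MII. It fell by 3.70 ± 0.64 on the log2 scale (edgeR, Benjamini-Hochberg adjusted p = 0.00635). *Zar1l*, an oocyte RNA-binding protein related to ZAR1 (chr5:150507055-150518164, minus strand), had 51730 and 42770 scaled counts at GVBD and 4740 and 1488 at MII, with a change of -3.92 ± 0.73 (edgeR, Benjamini-Hochberg adjusted p = 0.00804). *Fcf1* and *Lsm3* kept their calls without either GVBD library and without KO MII replicate 1, and lost them without KO MII replicate 2, where the changes were -5.02 and -3.24. The call of *Zar1l* was lost without KO MII replicate 2, without KO GVBD replicate 1 and without KO GVBD replicate 2, with changes of -3.32, -3.78 and -4.05. Most of the calls among the named genes were likewise lost without KO GVBD replicate 1, without KO GVBD replicate 2 or without KO MII replicate 2. Few were lost without KO MII replicate 1.

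Other genes with the deepest falls covered unrelated functions. *Med29*, a Mediator subunit, had 2069 and 3156 scaled counts at GVBD and 77.06 and 27.93 at MII, a change of -5.64 ± 0.93. *Gemin7*, a component of the SMN complex that assembles small nuclear ribonucleoproteins, had 3918 and 4413 at GVBD and 120.1 and 72.34 at MII, a change of -5.44 ± 0.86. For both genes every MII library lay more than 10-fold below every GVBD library. *Iqcf1*, an IQ motif protein, went from 1810 and 1387 to 29.02 and 6.447 scaled counts and changed by -6.51 ± 1.03. *Cdkn3*, a phosphatase that acts on cyclin-dependent kinases, went from 651.2 and 585 to 27.02 and 0, with a change of -5.54 ± 1.29. *Nr1h3*, the oxysterol receptor LXR alpha, went from 215.4 and 646.7 to 5.004 and 5.730, with a change of -6.29 ± 1.11. All 5 genes were called lower (edgeR, Benjamini-Hochberg adjusted p = 0.00504 to 0.0176).

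The remaining genes of largest fall rested on uncertain counts or on 1 GVBD library. *Spsb3*, an adaptor of an E3 ubiquitin ligase, had 44.40 and 970.5 scaled counts at GVBD and 5.004 and 9.312 at MII. *Idua*, a lysosomal iduronidase, had 1521 and 17.63 at GVBD and 12.01 and 12.18 at MII. *Rpgrip1*, a protein of the photoreceptor cilium, had 7261 and 99.15 at GVBD and 77.06 and 50.86 at MII. In each of these genes 1 GVBD library was high and the other was close to the MII libraries. *Myl12b* (identifier ENSMUSG00000117098, one of several identifiers with that symbol), a myosin regulatory light chain, had 69.06 and 1257 at GVBD and 0 in both MII libraries. Set against 3 counts per MII library, it was at least 257-fold lower. The processed pseudogene *AC131185.2* and *Kdm5d*, which the annotation places on the Y chromosome that these females lack, share sequence with other genes, and their origin is uncertain.

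Outside the naming rule, *Emg1*, *Mrto4* and *Nol12* were picked after their values had been seen, so they say nothing of ribosome assembly genes as a group, for which no list was set. *Emg1*, a methyltransferase of 18S ribosomal RNA, had 18150 and 13350 scaled counts at GVBD and 569.5 and 257.1 at MII, and was called lower at -5.25. *Mrto4*, an assembly factor of the large subunit, was called lower at -4.90, and *Nol12*, a nucleolar RNA-binding protein, at -5.00.

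Components of both ribosomes, translation factors and proteasome subunits were each called lower in over 25% of their tested genes. The share was 5.28% over all tested genes and 11.1% in the quintile of highest KO GV level. Among coding genes it was 12% in the quintile of shortest transcripts. The part of level and length in these 4 lists, and the order among them, was not tested. Among 87 tested cytosolic ribosomal protein genes, 25 (28.7%) were called lower and 0 higher, the fitted change was below 0 for 87, and the median was -1.96 on the log2 scale against -0.88 for all tested genes. Both MII libraries lay below both GVBD libraries for 70 of these 87 genes, against 52% of all tested genes. *Rps27a*, which encodes a fusion of ubiquitin with a small-subunit protein (chr11:29545846-29548109, minus strand), had 32850 and 18820 scaled counts at GVBD and 1175 and 453.4 at MII, a change of -4.99 ± 0.80 (edgeR, Benjamini-Hochberg adjusted p = 0.00512). *Rpl26*, a large-subunit protein, had 58100 and 40510 at GVBD and 3510 and 1101 at MII, a change of -4.42 ± 0.75. *Rpl19*, another large-subunit protein, changed by -4.05 ± 0.74. The summed scaled counts of the list were 1016000 and 865600 at GVBD and 405000 and 159400 at MII, and its mean share of all counts was 2.13% at GVBD and 0.931% at MII. Over the same interval in WT the list median was -2.65, with 64 of 87 called lower. By edgeR 0 of the 87 passed the test of a difference between genotypes, with 17 at an unadjusted p under 0.05. Ribosomal protein genes have many processed pseudogenes, so reads may be split between copies.

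Among 78 mitochondrial ribosomal protein genes, 23 (29.5%) were called lower, the fitted change was below 0 for 78, and the median was -2.03. *Mrpl46*, a large-subunit protein (chr7:78775236-78783531, minus strand), had 5096 and 4136 scaled counts at GVBD and 190.2 and 102.4 at MII, a change of -4.98 ± 0.85 (edgeR, Benjamini-Hochberg adjusted p = 0.00581). *Mrps25*, a small-subunit protein, had 43360 and 23770 at GVBD and 3184 and 1462 at MII, a change of -3.85 ± 0.73. The list took a mean of 1.22% of the counts at GVBD and 0.544% at MII. Its median in WT was -2.29, with 51 of 78 called lower. By edgeR 0 of the 78 passed the test of a difference between genotypes, with 7 at an unadjusted p under 0.05. Without KO MII replicate 2, and likewise without KO GVBD replicate 1, 0 cytosolic and 0 mitochondrial ribosomal protein genes were called. Without KO GVBD replicate 2 the calls were 3 and 0, and without KO MII replicate 1 they were 70 and 62.

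Of 48 initiation and elongation factors, 13 (27.1%) were called lower, with a median of -1.52. *Eef1d*, an exchange factor for elongation factor 1, had 18480 and 12180 scaled counts at GVBD and 1557 and 332.4 at MII, and *Eif3h*, a subunit of initiation factor 3, had 3407 and 2796 at GVBD and 325.3 and 116.8 at MII. Their changes were -4.02 and -3.81. Of 38 proteasome subunits, 10 (26.3%) were called lower, with a median of -1.44. *Psmc2*, an ATPase of the regulatory particle, had 34060 and 13780 scaled counts at GVBD and 2186 and 1003 at MII, a change of -3.91 ± 0.77 (edgeR, Benjamini-Hochberg adjusted p = 0.00910). *Psma6* and *Psmb1*, subunits of the catalytic core, changed by -3.54 and -3.55. The WT medians of the translation factor and proteasome lists were -1.01 and -1.48, with 20 of 48 and 16 of 37 called lower. By edgeR 0 of 48 and 0 of 38 passed the test of a difference between genotypes, with 0 and 3 at an unadjusted p under 0.05.

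Genes of respiration are split between the nuclear and the mitochondrial genome. Of 83 nuclear-encoded oxidative phosphorylation subunits, 13 (15.7%) were called lower, with a median of -1.14. The calls of lowest p were complex I subunits. *Ndufb10* had 1610 and 1699 scaled counts at GVBD and 121.1 and 26.50 at MII, a change of -4.49 ± 0.93. *Ndufs3* had 5070 and 3807 at GVBD and 461.4 and 105.3 at MII, a change of -3.97 ± 0.87. *Ndufb7* and *Ndufa8* changed by -4.60 and -3.38. The list took a mean of 2.43% of the counts at GVBD and 2.32% at MII. None of the 13 mitochondrially encoded messages was called by edgeR or DESeq2 or had an unadjusted p under 0.05, and their median was -0.67, which turned to 0.47 with TMM scaling. Of the 13, 4 had a fitted fall of 2-fold or more, and in 6 both MII libraries lay below both GVBD libraries. The largest fitted fall was that of *mt-Atp6*, an ATP synthase subunit, with 1117 and 3129 scaled counts at GVBD and 603.5 and 965.5 at MII. The smallest was that of *mt-Co3*, a cytochrome c oxidase subunit, which had 21110 and 25110 scaled counts at GVBD and 20250 and 21240 at MII, where the stages overlapped. In WT oocytes the corresponding medians were -2.15 for the nuclear-encoded and -0.06 for the mitochondrially encoded genes. By edgeR 0 of the 83 and 0 of the 13 passed the test of a difference between genotypes. At an unadjusted p under 0.05 there were 12 and 1.

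**Figure D3:**
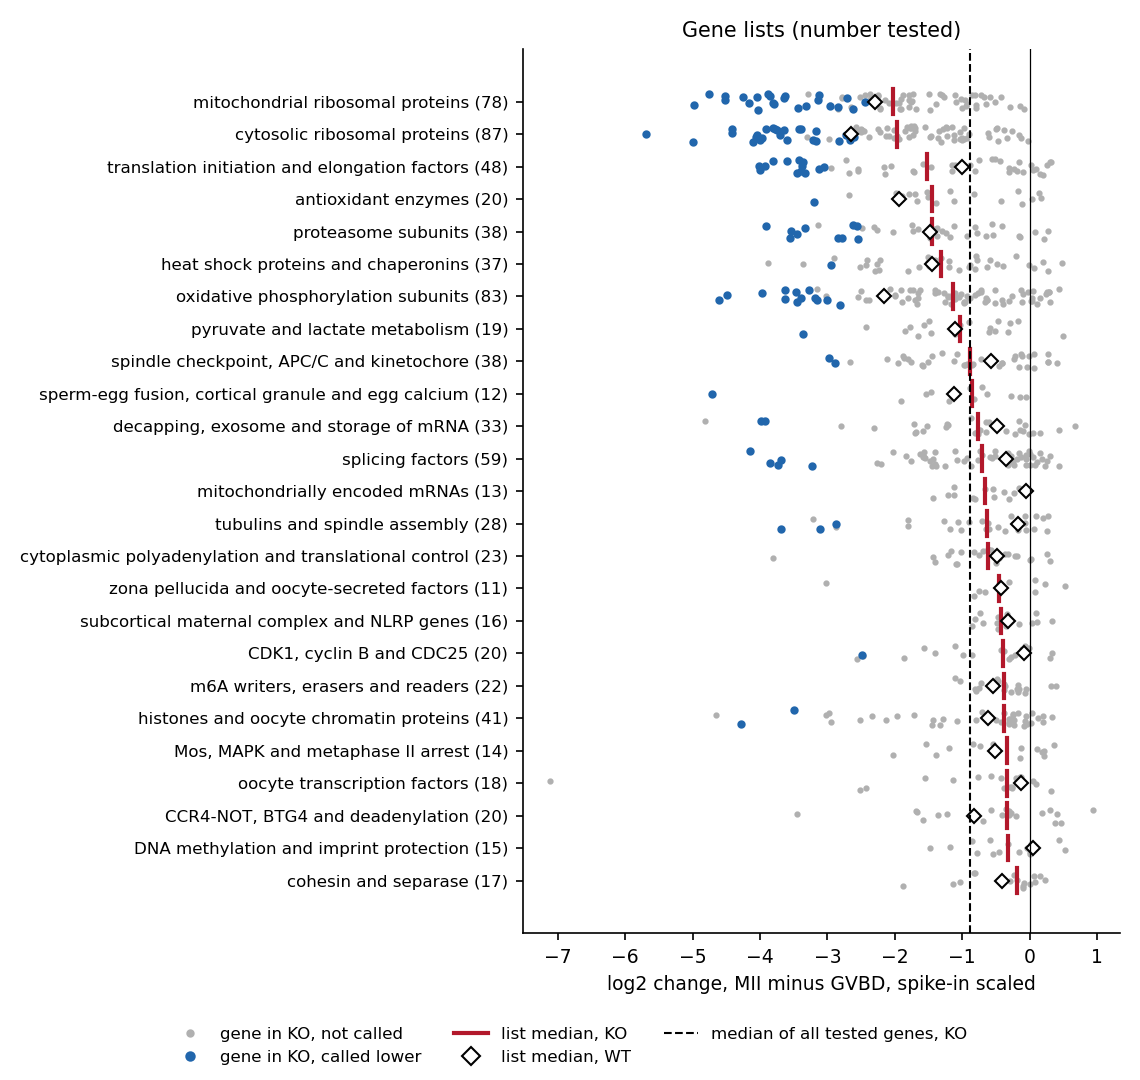
Log2 change from KO GVBD to KO MII of every tested member of 25 gene lists on the spike-in scale, with called genes in blue, the list median in KO as a red bar, the list median in WT as an open diamond and the median of all tested KO genes as a dashed line at -0.88. Mitochondrial and cytosolic ribosomal proteins have the lowest medians, -2.03 and -1.96, and cohesin and separase the highest, -0.19.

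Of the 25 lists, 15 had at least 1 member called lower and 0 had a member called higher. On the spike-in scale all 25 medians were below 0. Scaling by TMM, which assumes that the typical gene does not change, moved the median of all genes from -0.88 to -0.05, and 15 of the 25 list medians were then above 0. With TMM scaling 10 lists stayed below 0. The cytosolic and mitochondrial ribosomal, translation factor, proteasome and oxidative phosphorylation lists were at -1.25, -1.23, -0.78, -0.67 and -0.34. Antioxidant enzymes, chaperones and pyruvate metabolism were at -0.63, -0.42 and -0.25. The spindle checkpoint and sperm fusion lists were at -0.07 and -0.04.

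Single members were called in several lists whose shares of calls ran from 2.7% to 10.7%, around the 5.28% of all tested genes, so these are results about the genes and not about the lists. Among 20 genes of the CDK1 and cyclin B module, *Arpp19*, a substrate of Greatwall kinase that holds back phosphatase PP2A, was called lower, with 13500 and 17990 scaled counts at GVBD and 3540 and 2100 at MII. Its change was -2.48 ± 0.70 (edgeR, Benjamini-Hochberg adjusted p = 0.0409). Among 38 genes of the spindle checkpoint, the anaphase-promoting complex and the kinetochore, *Spc25*, a subunit of the NDC80 complex, and *Anapc2*, the cullin of the anaphase-promoting complex, were called lower at -2.89 and -2.97. Among 28 tubulin and spindle assembly genes, *Tubb4b*, *Tuba4a* and *Tacc3* were called lower at -3.69, -3.11 and -2.88. *Tubb4b* had 22630 and 29080 scaled counts at GVBD and 3428 and 590.9 at MII. With TMM scaling *Arpp19* at -1.61 and the 3 spindle genes *Tubb4b* at -3.08, *Tuba4a* at -2.39 and *Tacc3* at -2.16 were no longer called.

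Further called members were *Snrpc* at -4.15, one of 5 of 59 splicing genes, and *Exosc5* at -3.98, an RNA exosome subunit that with *Zar1l* made 2 of 33 decapping, exosome and storage genes. *Orai1*, a plasma membrane calcium channel, went from 536.1 and 366.8 to 31.02 and 3.581 scaled counts and was 1 of 12 genes for sperm fusion, cortical granules and egg calcium. *H2afv* and *Hmgn1*, a variant histone and a nucleosome-binding protein, were 2 of 41 chromatin genes and changed by -4.29 and -3.50. *Mdh2*, *Glrx3* and *Hspa4*, a mitochondrial malate dehydrogenase, a glutaredoxin and a heat shock protein, were the single calls among 19, 20 and 37 genes of pyruvate metabolism, antioxidant enzymes and chaperones, at -3.37, -3.19 and -2.95. These 3 lists had medians of -1.04, -1.45 and -1.32, below the median of all genes, and 10, 13 and 22 of their members had a fitted fall of 2-fold or more. With TMM scaling *Exosc5*, *Orai1* and *Glrx3* were no longer called, at -3.25, -4.08 and -2.49.

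In 10 lists of 11 to 23 tested genes no gene was called by edgeR, and at the 5.28% of all tested genes a list of that size would hold about 1 call, so 0 calls in a single list is close to the background. Of their 169 tested members, 10 had an unadjusted p under 0.05 and 4 were called, all lower, by DESeq2. The lists were the mitochondrially encoded messages, the CCR4-NOT and BTG4 list, the m6A genes, cytoplasmic polyadenylation, zona pellucida and secreted factors, the subcortical maternal complex, oocyte transcription factors, the Mos and MAPK list, cohesin and separase, and DNA methylation. Their medians ran from -0.67 to -0.19 on the spike-in scale, all above the median of all genes, and from 0.29 to 0.63 with TMM scaling. For the subcortical maternal complex and NLRP genes, 0 of 16 members had a fitted fall of 2-fold or more, against 46.2% of all tested genes. The zona pellucida and secreted factors took a mean of 1.37% of the counts at GVBD and 2.24% at MII, and the CCR4-NOT and BTG4 list took 0.505% and 0.990%. *Btg4* alone held 158900 of 279600 and 179300 of 263500 scaled counts of the latter list at MII. Of that list's 20 tested genes, 14 had a fitted change below 0.

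The 20 deadenylation genes had a median of -0.33, with 6 at a fitted fall of 2-fold or more, and both MII libraries lay below both GVBD libraries in 7 and above both in 3. By edgeR 0 were called, with 3 at an unadjusted p under 0.05 and 1 called lower by DESeq2. The largest fitted fall was that of *Cnot10*, a CCR4-NOT subunit, with 628.1 and 637.8 scaled counts at GVBD and 108.1 and 8.595 at MII, a change of -3.45 ± 1.03 (edgeR, Benjamini-Hochberg adjusted p = 0.0535). *Cnot1*, the scaffold of the complex, had 2878 and 2755 at GVBD and 1283 and 467 at MII, a change of -1.69 ± 0.76. *Btg4* (chr9:51060901-51119875, plus strand) had 155700 and 98810 scaled counts at GVBD and 158900 and 179300 at MII. Both MII libraries lay above both GVBD libraries, but the change of 0.41 ± 0.53 was smaller than its error (edgeR, Benjamini-Hochberg adjusted p = 0.790). *Cnot7*, a catalytic subunit of CCR4-NOT, had 26270 and 21940 at GVBD and 32960 and 29330 at MII, a change of 0.37 ± 0.60. Among the 22 m6A genes, *Ythdf2* had 5306 and 5004 at GVBD and 3952 and 3400 at MII, a change of -0.49 ± 0.68. *Igf2bp3*, an m6A reader, had 3470 and 3208 at GVBD and 3380 and 1761 at MII, a change of -0.38 ± 0.71.

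No gene of the Mos and MAPK list or of the zona and secreted list was called by edgeR, and their fitted changes lay on both sides of 0. *Ccnb1*, cyclin B1, a member of the CDK1 and cyclin B list instead, had 52630 and 36250 scaled counts at GVBD. It had 60210 and 51630 at MII, a change of 0.33 ± 0.58. *Mos*, the kinase that holds eggs at metaphase II through the MAPK pathway, had 11340 and 7836 at GVBD and 13510 and 8652 at MII, a change of 0.21 ± 0.66. *Pttg1*, securin, a member of the cohesin and separase list, had 264000 and 191700 at GVBD and 287600 and 243600 at MII. Its change was 0.22 ± 0.50. In these 3 genes the stages overlapped. *Gdf9*, an oocyte growth factor (chr11:53431023-53437904, plus strand), had 96140 and 71220 at GVBD and 114400 and 61940 at MII, a change of 0.08 ± 0.57. *Oosp1*, an oocyte-secreted protein, had 259700 and 112900 at GVBD and 263900 and 269500 at MII, a change of 0.52 ± 0.53. The GVBD libraries of *Oosp1* differed from each other more than the MII libraries did. Other members of the Mos and MAPK list and of the zona and secreted list were lower. *Calm2*, a calmodulin gene of the Mos and MAPK list, had 49440 and 83070 at GVBD and 34170 and 16270 at MII, a change of -1.39 ± 0.62 without a call. *Oosp2* had 99970 and 78060 at GVBD and 62970 and 42880 at MII, a change of -0.75 ± 0.57. *Zp2*, a zona pellucida protein, had overlapping stages and a change of -0.83 ± 0.60. *Fgf8*, a secreted growth factor, had 416 and 186.2 at GVBD and 49.04 and 25.07 at MII, a change of -3.02 ± 0.96 (edgeR, Benjamini-Hochberg adjusted p = 0.0659), and 1 gene of the zona and secreted list was called lower by DESeq2.

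No message could be shown to be kept to within 2-fold. A 95% confidence interval that lay inside a 2-fold change in both directions was found for 0 of 18143 genes, because the median interval reached 1.88 on the log2 scale to either side. A fitted change within 0.5 on the log2 scale was found for 5750 genes (31.7%). The narrowest case among the named genes was *Dppa3*, a maternal factor that protects methylated DNA in the zygote (chr6:122626410-122630272, plus strand). It had 354700 and 369900 scaled counts at GVBD and 363500 and 345200 at MII, a change of -0.03 ± 0.48 with a 95% interval from -1.02 to 0.96.

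Among the 300 genes of highest level at KO GVBD, the smallest fitted changes belonged to genes of varied function. *Pld1*, phospholipase D1 (chr3:27938695-28133362, plus strand), had 28220 and 34540 scaled counts at GVBD and 43500 and 19230 at MII, and its 95% interval ran from -1.29 to 1.29. *Bcl2l10*, a BCL2-family protein abundant in oocytes (chr9:75347758-75351632, plus strand), had 37290 and 37950 at GVBD and 47310 and 28280 at MII, a change of 0.01 ± 0.59. In both genes KO MII replicate 1 lay above the GVBD libraries and KO MII replicate 2 below them. *Immp1l*, a peptidase of the inner mitochondrial membrane, had 48380 and 32850 at GVBD and 42180 and 40750 at MII. *Oog3*, an oogenesin, had 123500 and 97980 at GVBD, and 109600 and 106700 counts at MII on the same scale. The other 5 genes, *Smarca2*, *Dnajc8*, *Pcbd2*, *Atp5mpl* and *Tiam1*, had fitted changes from -0.03 to 0.03 and the same pattern of replicate 1 above replicate 2 at MII.

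**Figure D4:**
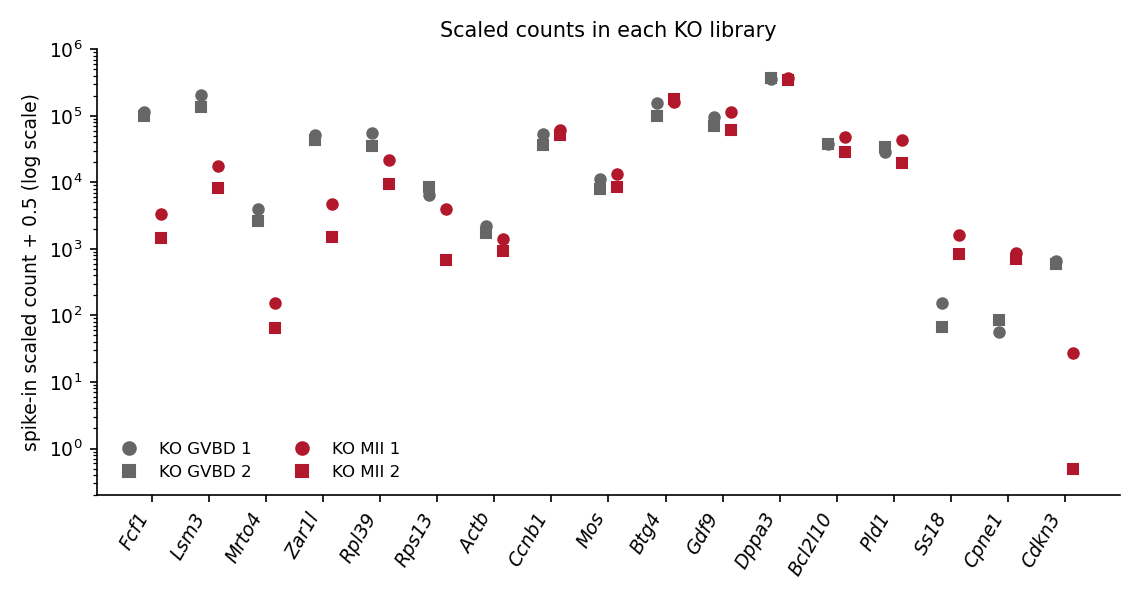
Spike-in scaled counts plus 0.5 (log axis) of 17 genes in each KO library; grey marks are GVBD, red marks MII, circles replicate 1 and squares replicate 2. *Fcf1*, *Lsm3*, *Mrto4*, *Zar1l* and *Cdkn3* are far lower in both MII libraries, *Ccnb1*, *Mos*, *Btg4*, *Gdf9*, *Dppa3*, *Bcl2l10* and *Pld1* lie at similar levels at both stages, and *Ss18* and *Cpne1* are higher in both MII libraries.

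The changes of the tested messages were next set against sequence features that the count model did not use. Cytoplasmic polyadenylation elements (CPE, searched as TTTTAT or TTTTAAT on the transcript strand) were looked for in the last 100 bases of the 3′ UTR of each gene's principal annotated transcript. Such a match stood in 17.9% of 19321 annotated 3′ UTRs of at least that length and in 19.6% of the 12496 tested. Among the named genes with such a UTR, it was found in 0 of the 9 with the deepest falls, in 5 of the 10 with the smallest changes and in 4 of the 7 taken as highest, a set filled up with genes that were not called. The 30-base windows below hold the match in capitals. Of these, 4 belong to messages without a detectable change and 3 to messages that fell, so the matched string was present on both sides. The match began 36, 42, 67 and 39 bases from the 3′ end in *Pld1*, *Bcl2l10*, *Btg4* and *Gdf9*. In *Lsm3*, *Psmb1* and *Arpp19* it began 8, 26 and 15 bases from that end. Whether any match acts as an element was not tested. The sequences are of GRCm38 with GENCODE M21 3′ UTRs, written 5′ to 3′ on the transcript strand.
Pld1, no detectable change, chr3:28133192-28133221, plus strand: aaattaacatgtTTTTATgaataaataact
Bcl2l10, no detectable change, chr9:75351579-75351608, plus strand: cccttaatacatTTTTAATaacttcaaatt
Btg4, no detectable change, chr9:51119797-51119826, plus strand: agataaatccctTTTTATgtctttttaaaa
Gdf9, no detectable change, chr11:53437854-53437883, plus strand: agagtgctgtggTTTTATgtgacggaagaa
Lsm3, fell, chr6:91522596-91522625, plus strand: aaattaaatttgatgtttccttTTTTATta
Psmb1, fell, chr17:15475029-15475058, minus strand: gtttttgcttttTTTTAATaaacttctgtt
Arpp19, fell, chr9:75060284-75060313, plus strand: atggatctacctaatTTTTATtgattttaa

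Across the 12496 tested genes, the 2443 with a CPE match had a median log2 change of -0.47, and 2.99% of them were called lower. The 10053 without a match had a median of -0.92 and 5.27% were called lower. The order was the same in each MII library, with medians of -0.11 and -0.48 in KO MII replicate 1 and of -1.09 and -1.79 in KO MII replicate 2 for genes with and without a match. WT oocytes gave medians of -0.52 and -1.05 over the same interval. The AU-rich TATTTAT in the whole 3′ UTR, whose first bases TAT can be the last bases of TTTTAT so that 1 stretch can count for both, went with a median of -0.62 in 3615 genes against -0.96 in 9536 without it. The Pumilio motif TGTANATA went with -0.63 in 3247 genes against -0.95 in 9904 without it. Longer 3′ UTRs hold more of any motif, and their part in these differences was not tested.

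Short and GC-rich transcripts had lower medians. In quintiles of transcript length, the median log2 change was -1.25, -1.03, -0.83, -0.75 and -0.57 from the shortest to the longest, and the share called lower was 12%, 6.54%, 3.59%, 2.92% and 1.79%. The shortest quintile spanned 180 to 1604 bases and the longest began at 4916 bases. In quintiles of GC content the median went from -0.51 in the lowest to -1.32 in the highest, with 2.17% and 8.64% called lower. The order by length held in each library, from -0.92 to -0.13 in KO MII replicate 1 and from -2.01 to -1.38 in KO MII replicate 2. By GC content the medians went from -0.18 to -0.79 in KO MII replicate 1 and from -1.08 to -2.59 in KO MII replicate 2, so the spread between quintiles was wider in replicate 2. Across genes, the change correlated with GC content at Spearman -0.237 in KO and -0.109 in WT, and with transcript length at 0.179 and 0.192, as descriptions over genes that share libraries and amplification.

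**Figure D5:**
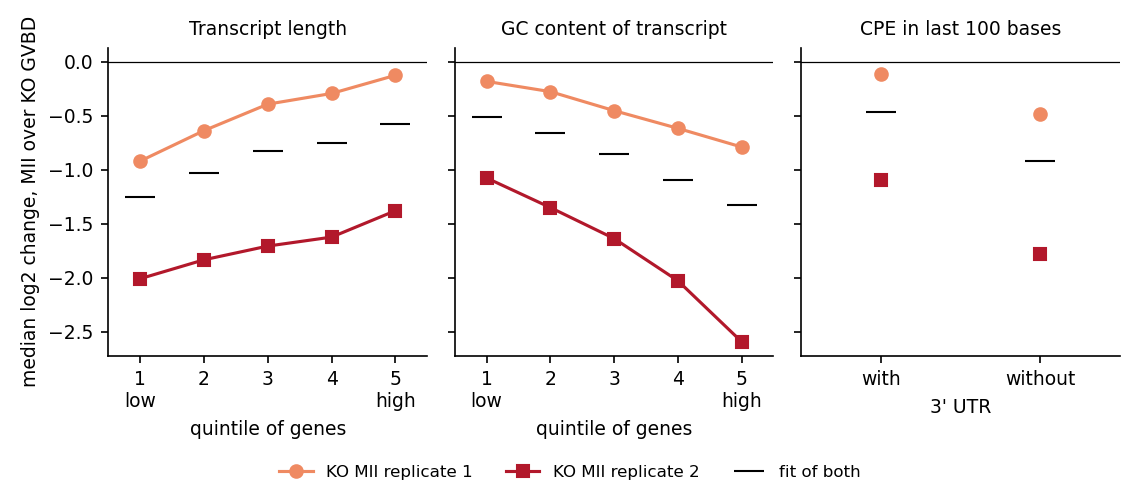
Median log2 change of protein-coding genes in quintiles of transcript length and of GC content and by the presence of a CPE match in the last 100 bases of the 3′ UTR, for KO MII replicate 1 (circles) and KO MII replicate 2 (squares) over the mean of the KO GVBD libraries, with the fit of both as black bars. Medians rise with length from -0.92 to -0.13 in replicate 1 and from -2.01 to -1.38 in replicate 2, and fall with GC content in both.

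By annotation, 722 of 13437 tested protein-coding genes (5.37%) and 73 of 1215 lincRNA genes (6.01%) were called lower. Of 616 antisense genes 46 (7.47%) were called lower, but whether counting used the strand is not given in the sources used here, so these cannot be told apart from their partner genes.

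Few messages were higher at MII. *Lgsn*, lengsin, a relative of glutamine synthetase (chr1:31176401-31204725, plus strand), had 338.7 and 222.5 scaled counts at GVBD and 4828 and 2745 at MII, a change of 3.75 ± 0.81 (edgeR, Benjamini-Hochberg adjusted p = 0.0132). In the KO GV libraries it had 294.9 and 5377, so 1 GV library already held the MII level. *Ss18*, a subunit of BAF chromatin remodelling complexes, had 151.3 and 66.10 at GVBD and 1631 and 848.1 at MII, and 85.57 and 978.5 at GV. *Cpne1*, a calcium-dependent phospholipid-binding copine (chr2:156071842-156111965, minus strand), had 55.91 and 85.93 at GVBD and 864.7 and 696.9 at MII, a change of 3.45 ± 0.88. Its KO GV libraries, at 174.8 and 70.17, were also below MII, and its WT change over the interval was 2.49. *Pakap*, annotated as a readthrough of neighbouring genes and thus uncertain, had 0 counts in both GVBD libraries, 2136 and 1088 scaled counts at MII, and 0 and 1079 at GV. The calls of *Lgsn*, *Ss18* and *Cpne1* were lost without either GVBD library, where the changes ran from 3.03 to 4.23, those of *Ss18* and *Cpne1* also without KO MII replicate 2, at 3.92 and 3.60, and that of *Pakap* without KO GVBD replicate 2.

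The other 7 calls were less secure. The globin genes *Hba-a1*, *Hba-a2* and *Hbb-bt* were high in KO MII replicate 1 alone, and *Ccno*, cyclin O, in KO MII replicate 2 alone, and for these 4 genes the stages overlapped. *Hba-a1* had 29.60 and 78.22 scaled counts at GVBD and 11490 and 7.879 at MII. The predicted genes *Gm49450*, *Gm30008* and *Gm21982* had at most 120.1 scaled counts in any of the 4 libraries. *Srebf2*, a transcription factor of sterol synthesis, had 24.67 and 66.10 at GVBD and 658.5 and 185.5 at MII but was not called (edgeR, Benjamini-Hochberg adjusted p = 0.0569). The next genes in order, *Amd2*, *Serpinb1a* and *Chp1*, had adjusted p of 0.204 to 0.245 by the same test (edgeR, Benjamini-Hochberg).

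Markers of other cell types moved between the same libraries. The summed scaled counts of 7 blood markers were 373.3 and 537.6 in the GVBD libraries, 20050 in KO MII replicate 1 and 84.52 in KO MII replicate 2. The sums of 8 cardiac muscle markers, of which 3 were tested, were 19840 and 27910 at GVBD and 9670 and 1748 at MII. Most of each sum was a single gene, *Tnni3*, with 19610 and 21470 at GVBD and 9627 and 1736 at MII. It had 25010 and 22910 at KO GV, so these sums mainly follow *Tnni3* and not the cardiac markers as a set. *Myh6* and *Myl2*, a myosin heavy chain and a light chain, were called lower, but *Myh6* had 1.644 and 2425 scaled counts at GVBD and 13.01 and 1.433 at MII, so its fall rested on KO GVBD replicate 2. Cumulus and granulosa markers summed to 2856 and 1486 at GVBD and 1552 and 1661 at MII, with 3 of 11 at 0 in all 4 libraries and 0 of the 5 tested called by edgeR or DESeq2 or at an unadjusted p under 0.05. Of 4 keratinocyte markers 3 were at 0 in all 4 libraries. The part of these cells in the results was not tested.

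The same interval in WT oocytes, measured in other libraries, was used to ask whether any loss was particular to the KO. Of the 958 genes called lower in KO, 921 were tested in WT and 877 of them (95.2%) had a fitted WT fall of 2-fold or more, against 53.3% of all 19270 genes tested in WT. Their median change in WT was -3.41. By edgeR 0 of the 958 genes passed the test of a difference between genotypes, with 124 at an unadjusted p under 0.05 and 12 called by DESeq2. Their median difference, KO minus WT, was -0.43, against 0.11 over all genes tested for it. The 958 genes were picked for low values in the same KO libraries that enter this difference. Selection alone can therefore bring the median below 0 and add small p-values, so no deeper loss in KO is shown. Over 17190 genes the changes in KO and WT correlated across genes at Pearson 0.542 and Spearman 0.618, as a description. *Fcf1* and *Zar1l* changed by -6.46 and -4.19 in WT.

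Tested across 20992 genes, 2 genes (0.00953%) had a late change that differed between genotypes, both less negative in KO, and 1241 had an unadjusted p under 0.05. This count rested on single libraries: it was 230 without KO MII replicate 2 and 66 without KO MII replicate 1, between 24 and 45 without any 1 of the 4 GVBD libraries, and 1 without either WT MII library. *Ctla2a*, a cathepsin inhibitor (chr13:60934155-60936625, minus strand), had 18.09 and 15.42 scaled counts at KO GVBD and 100.1 and 155.4 at KO MII, against 615.5 and 604.8 at WT GVBD and 8.774 and 6.265 at WT MII. At KO GV it had 906.7 and 932.6. Genes of blood cells moved in part with it: *Hba-a1* had 60240 and 82630 at KO GV, 29.60 and 78.22 at KO GVBD, 11490 and 7.879 at KO MII, 57420 and 32190 at WT GVBD, and 76.57 and 211.6 at WT MII. *Alas2*, the first enzyme of heme synthesis in red cells, and the platelet genes *Ppbp* and *Itga2b* were among the 5 named genes of lowest p in this direction but were not called (edgeR, Benjamini-Hochberg adjusted p = 0.0681). They were low in KO MII replicate 2, in which *Ctla2a* was not, and the part of blood cells in the *Ctla2a* difference was not tested. The difference was 9.26 ± 1.13 (edgeR, Benjamini-Hochberg adjusted p = 0.0174), and the rise within KO was not called by itself (edgeR, Benjamini-Hochberg adjusted p = 0.0996). The other gene was *Gm7970*, a predicted gene with 189 and 285 counts at KO GVBD, 242 and 491 at KO MII, 249 and 194 at WT GVBD and 0 in both WT MII libraries.

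The genes that the study followed by RT-qPCR, from GV to MII, were not called in KO between GVBD and MII. The study had chosen them from messages that its RNA-seq found degraded only in WT. *Rpl39*, a small ribosomal protein of the large subunit, had 56060 and 35520 scaled counts at KO GVBD and 21760 and 9327 at KO MII, a change of -1.56 ± 0.64 against -4.45 in WT. *Rpl5*, *Rps13* and *Rpl23a* had changes of -1.24, -1.70 and -1.32 in KO and of -4.04, -4.64 and -3.84 in WT. *Atp5j2*, an ATP synthase subunit, had 110900 and 109800 at KO GVBD and 56130 and 14230 at KO MII, a change of -1.65 ± 0.64 against -4.79 in WT. All 5 of these genes were called lower in WT. None of them passed the test of the genotype difference, with differences of 2.52 to 3.14 on the log2 scale. The adjusted p were 0.456 to 0.771 (edgeR, Benjamini-Hochberg) and the unadjusted p of the same test 0.0023 to 0.030. Because the study chose these genes by such a difference in the same data, small unadjusted p are not independent evidence. *Uchl1* and *Esrrb*, a deubiquitinase and a nuclear receptor, had changes of -1.22 and -1.14 in KO without a call, and of -1.90 and -2.11 in WT. *Birc5*, survivin, had a change of -0.41 ± 0.61 in KO and -1.44 in WT. The genotype differences of these 3 genes were 0.68, 0.97 and 1.03, none of them called. *Actb*, the reference gene of those assays, had a change of -0.75 ± 0.73, with 2213 and 1704 scaled counts at GVBD and 1409 and 915.4 at MII.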

How the data were processed

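RNA-seq libraries were made from pools of oocytes, and 2 libraries per genotype and stage were given as biologically independent samples. According to the submitters' processing notes, reads were trimmed with cutadapt 1.9, aligned to mm10 with HISAT2 2.0.4 and assembled with StringTie 1.3.4d. GEO's own preparation text describes a bulk Trizol protocol with fragmented mRNA, whereas the study's methods describe low-input amplified cDNA. The deposited matrix holds whole-number counts per Ensembl gene and per ERCC sequence, not normalized, as the authors left them. Reads were amplified by PCR without molecular identifiers.

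Counts of 56691 genes were scaled to the summed counts of 92 ERCC sequences ("scaled counts"). Genes were filtered with filterByExpr and tested with edgeR 4.0.16 (quasi-likelihood, R 4.3.3) on the 4 KO libraries, and the genotype difference on the 8 GVBD and MII libraries. A call needed a Benjamini-Hochberg adjusted p under 0.05 and a 2-fold change. Standard errors were taken from the F statistic. DESeq2 1.42.0, TMM and median-of-ratios scaling, other filters, a model of all 12 libraries, replicate blocks and leaving out each library were the alternatives. The fits were tested on simulated data. Symbols matched 52073 identifiers (91.9%). Positions, gene types and sequences were those of GENCODE M21 (GRCm38). A coding transcript was used for 13376 of 13437 tested protein-coding genes (99.5%), the APPRIS principal one with the longest coding part.

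The named genes were the 12 called with the lowest and the 8 with the highest change that reached the median mean count of tested genes, carried a gene symbol and did not overlap between stages, filled with uncalled genes of lowest p. Added were the 10 smallest changes among the 300 genes of highest KO GVBD level, the 5 of lowest p in each direction of the genotype difference, up to 4 members of each gene list, and the study's RT-qPCR genes. Only those of interest to the late change are described. The comparison, the gene lists and the tests were chosen with earlier results of these data known.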

Additional observations from a re-analysis of the deposited data

Results flagged for a closer look

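The late change of 2 genes differed between genotypes by a test of the difference itself. For *Ctla2a*, a cathepsin inhibitor, the log2 change from GVBD to MII was higher in KO by 9.26 ± 1.13 (SE, edgeR, Benjamini-Hochberg adjusted p = 0.0174). Its counts were 11 and 14 at KO GVBD and 100 and 217 at KO MII, against 459 and 683 at WT GVBD and 11 and 13 at WT MII. Both KO MII libraries lay above both KO GVBD libraries, and both WT MII libraries lay below both WT GVBD libraries. At KO GV the counts of *Ctla2a* were 498 and 731, so it was already low at KO GVBD. For the predicted gene *Gm7970* the difference was 11.1 ± 1.47 (edgeR, Benjamini-Hochberg adjusted p = 0.036), with 0 counts in both WT MII libraries, so its size depends on the prior count. With the replicate number as a block the adjusted p was 0.0745 for *Ctla2a* and 0.167 for *Gm7970*, and it was 0.0709 for both without WT MII replicate 1. Groups of 2 libraries are too small for a check of outlying samples.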

How the results depend on the processing

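The number of calls depended on the settings. Against 969 calls (958 lower, 11 higher), TMM scaling gave 442 (433 lower, 9 higher) and median-of-ratios scaling 408 (399 lower, 9 higher). No filter on low counts gave 1526 (1491 lower, 35 higher), at least 10 counts in every library 1547 (1537 lower, 10 higher), DESeq2 2268 (2256 lower, 12 higher) and a model of all 12 libraries 2738 (2729 lower, 9 higher). Of the 958 lower calls, 428 were shared with TMM scaling, 950 with DESeq2 and 940 with the 12-library model. With spike-ins of at least 10 counts there were 970 calls. Leaving out 1 library gave 21 to 6305 calls, 12 to 6277 lower and 0 to 28 higher. The labels give the stages the same replicate numbers. Same-numbered KO libraries deviated from their group means with a correlation of -0.22 across genes. With 2 libraries per stage this cannot decide whether the numbers mark a shared day or litter. No pairing was assumed in the main fit. The replicate block gave 2408 calls (2397 lower, 11 higher) and the crossed replicate block, chosen after seeing the data, 204 (203 lower, 1 higher). For the genotype difference, against 2 calls, TMM scaling gave 30, median-of-ratios scaling 34, no filter 195, at least 10 counts in every library 38, DESeq2 121, the replicate block 0 (1444 at an unadjusted p under 0.05) and leaving out 1 library 1 to 230. The fall of the pool kept its direction in every alternative run, with ratios of 0.448 to 0.801.

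The median of all genes was -0.05 with TMM and -0.01 with median-of-ratios scaling, and -1.75 to -0.52 without 1 library. Genes within 0.5 of no change numbered 2969 to 7163 without 1 library. List medians moved by more than the spread between libraries in the following cases. With TMM scaling they were 0.47 for mitochondrially encoded messages, 0.22 for splicing, 0.03 for decapping and storage, 0.50 for m6A genes, 0.44 for the subcortical maternal complex, 0.50 for oocyte transcription factors, 0.46 for the CDK1 module, -0.25 for pyruvate metabolism, -0.42 for chaperones, 0.66 for oocyte markers and -0.43 for cumulus markers. With median-of-ratios scaling they were 0.52, 0.25, 0.06, 0.53, 0.48, 0.54, 0.50, -0.21, -0.39, 0.70 and -0.40 in the same order, with 0.32 for cytoplasmic polyadenylation, 0.42 for zona and secreted factors and 0.66 for cohesin. Both scalings set the typical gene near 0 by construction. Without 1 library the medians ran from -3.35 to -1.33 for cytosolic ribosomal proteins, -2.58 to -0.97 for the proteasome, -0.96 to -0.13 for oocyte transcription factors, -1.16 to -0.19 for the CDK1 module, -1.29 to 0.07 for the Mos list, -1.04 to 0.30 for cohesin, -1.23 to -0.13 for histones, -1.98 to -0.55 for pyruvate metabolism, -2.59 to -0.63 for cumulus markers and -5.75 to -1.79 for cardiac markers. Over 156 named genes tested, 1711 values kept their side of the threshold, 237 lost and 60 gained a call, and 3 reversed. These were *Myh6*, with -9.60 to 2.04 without 1 library and the highest value without KO GVBD replicate 2, and *Hba-a1* and *Hbb-bs*, with -2.76 to 7.70 and -9.66 to 6.29 and the lowest values without KO MII replicate 1. Apart from the scalings, the cause of these moves was not tested. The values that kept their side include those of named genes without a call in either fit, which had no call to lose.

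With 2 libraries per stage, leaving out 1 leaves a lone library that is assumed to vary like the others. The p-values measure the spread between libraries, and the depth of the loss at MII differed between the libraries by more than 1 on the log2 scale. Counting intervals were not given because the libraries were amplified. A message not called was not shown to be kept.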
